A study of Mus musculus with 33 samples.

Results

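The genes of steroid synthesis were followed in single germinal vesicle (GV) oocytes, which are fully grown or nearly grown egg cells still arrested before the first meiotic division. The 10 members were taken from the table of gene counts by their symbol: *Star*, *Cyp11a1*, *Fdx1*, *Fdxr*, *Hsd3b1*, *Cyp17a1*, *Cyp19a1*, *Hsd17b1*, *Nr5a1* and *Lhcgr*. They are 10 of 35321 genes in the table. The set was chosen by measured values of these same libraries, in which *Hsd3b1* and *Hsd17b1* were already known to be higher in mutant oocytes. The levels of both are therefore given as a description, and so is everything that follows from them.

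Steroid hormones are built from cholesterol in a chain of steps that the ovary divides between cell types. Theca and interstitial cells take cholesterol through pregnenolone and progesterone to androgens, and granulosa cells, which surround the oocyte, turn androgens into oestrogens. The oocyte itself is not known as a main site of these steps, so the genes are usually read as marks of its somatic neighbours.

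The oocytes came from *Nlrp5* +/+, *Nlrp5* +/- and *Nlrp5* -/- females aged 3 weeks on a C57BL6/Babr background. *Nlrp5* encodes NALP5 (also called MATER), an oocyte protein of the subcortical maternal complex. The mutant allele is a constitutive frameshift made in zygotes with CRISPR/Cas9, so the somatic cells of the ovary carry it as well. Per the study's methods the +/- and -/- females shared litters, while the +/+ females mostly came from the parent colony, so litter and the +/+ genotype cannot be told apart. Ovaries were digested with collagenase and trypsin, and each oocyte was rinsed and frozen singly before its RNA and DNA were separated. The table holds 10 *Nlrp5* +/+ oocytes, 16 *Nlrp5* +/- oocytes and 7 *Nlrp5* -/- oocytes. Stage was taken as the study drew it from marker genes. NSN oocytes (non-surrounded nucleolus, the earlier state) numbered 4, 9 and 4 in the order +/+, +/- and -/-, and SN oocytes (surrounded nucleolus, the later and mostly silent state) numbered 6, 7 and 2. *Nlrp5* -/- oocyte 15 has no stage, so its values are given apart and it entered no comparison by stage. It is included in the rank correlations over all and over -/- oocytes, and in counts made without regard to stage. The labels name no mouse, so all oocytes of 1 genotype and stage count as 1 sample. No test could be made between genotypes, and every SD below is a spread over cells.

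Counts on genes ran from 4223595 to 15573360 per oocyte. Each count was divided by a size factor, and the result is called a normalized count. *Nlrp5* itself read 10114 to 29131 normalized counts in +/+ oocytes, 5062 to 13472 in +/- and 1362 to 2556 in -/-, so every -/- oocyte was under every other. Summed oocyte markers (11 genes, *Gdf9* and *Zp3* among them) lay between 20013 and 31774 CPM (counts scaled to the same library total) in the 32 staged oocytes and at 16247 CPM in oocyte 15. No first sequencing index was shared between genotypes, so index group and genotype cannot be told apart. Oocytes 13, 14 and 15 shared a first index, oocyte 7 had its own, and oocytes 29, 30 and 31 shared another.

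*Hsd3b1* was higher in every staged oocyte of both mutant genotypes than in the +/+ oocytes of the same stage. Its product oxidizes pregnenolone to progesterone, a step that all steroid-making ovarian cells share. The files place it at chr3:98852194-98859794 on the minus strand of GRCm38. The 4 NSN +/+ oocytes held 9.22, 10.4, 12.3 and 14.1 normalized counts, and the 6 SN +/+ oocytes held 5.07 to 11.2 with a median of 9.54. The 4 NSN -/- oocytes held 53.7, 57.4, 277 and 1373, and the 2 SN -/- oocytes held 51.4 and 128. Oocyte 15 held 4620.3. The 9 NSN +/- oocytes ran from 16.9 to 1177 with a median of 86.4, and the 7 SN +/- oocytes from 13.3 to 171 with a median of 37.4. At both stages every mutant oocyte lay above every +/+ oocyte of its stage, and within each mutant genotype the values still spread widely.

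The mean of *Hsd3b1* was 440.3 ± 631 normalized counts (SD, n = 4 oocytes) in NSN -/- and 11.5 ± 2.15 (n = 4) in NSN +/+, a log2 fold change of 5.14. It was 3.25 in SN -/- over +/+, 4.21 in NSN +/- over +/+ and 2.78 in SN +/- over +/+. The SN -/- value rests on 2 oocytes and was 2.45 without oocyte 7. All these comparisons share the +/+ oocytes of their stage. Without oocyte 14 the NSN -/- value was 3.38, and without oocytes 13 and 14 together it was 2.18. Without oocyte 61 the NSN +/- value was 3.19, and without oocytes 54 and 61 together it was 2.20. Of the near copies of *Hsd3b1* on the same chromosome, *Hsd3b2* and *Hsd3b4* had 0 counts, *Hsd3b3* had 2 and *Hsd3b5* had 3 in all oocytes together. *Hsd3b6* had 499 counts in 29 oocytes and 0 in oocyte 15, which had the highest *Hsd3b1*. In +/+ oocytes the mean of *Hsd3b6* was 18.3 at NSN and 11.9 at SN, above that of *Hsd3b1* (11.5 and 8.56).

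**Figure D1:**
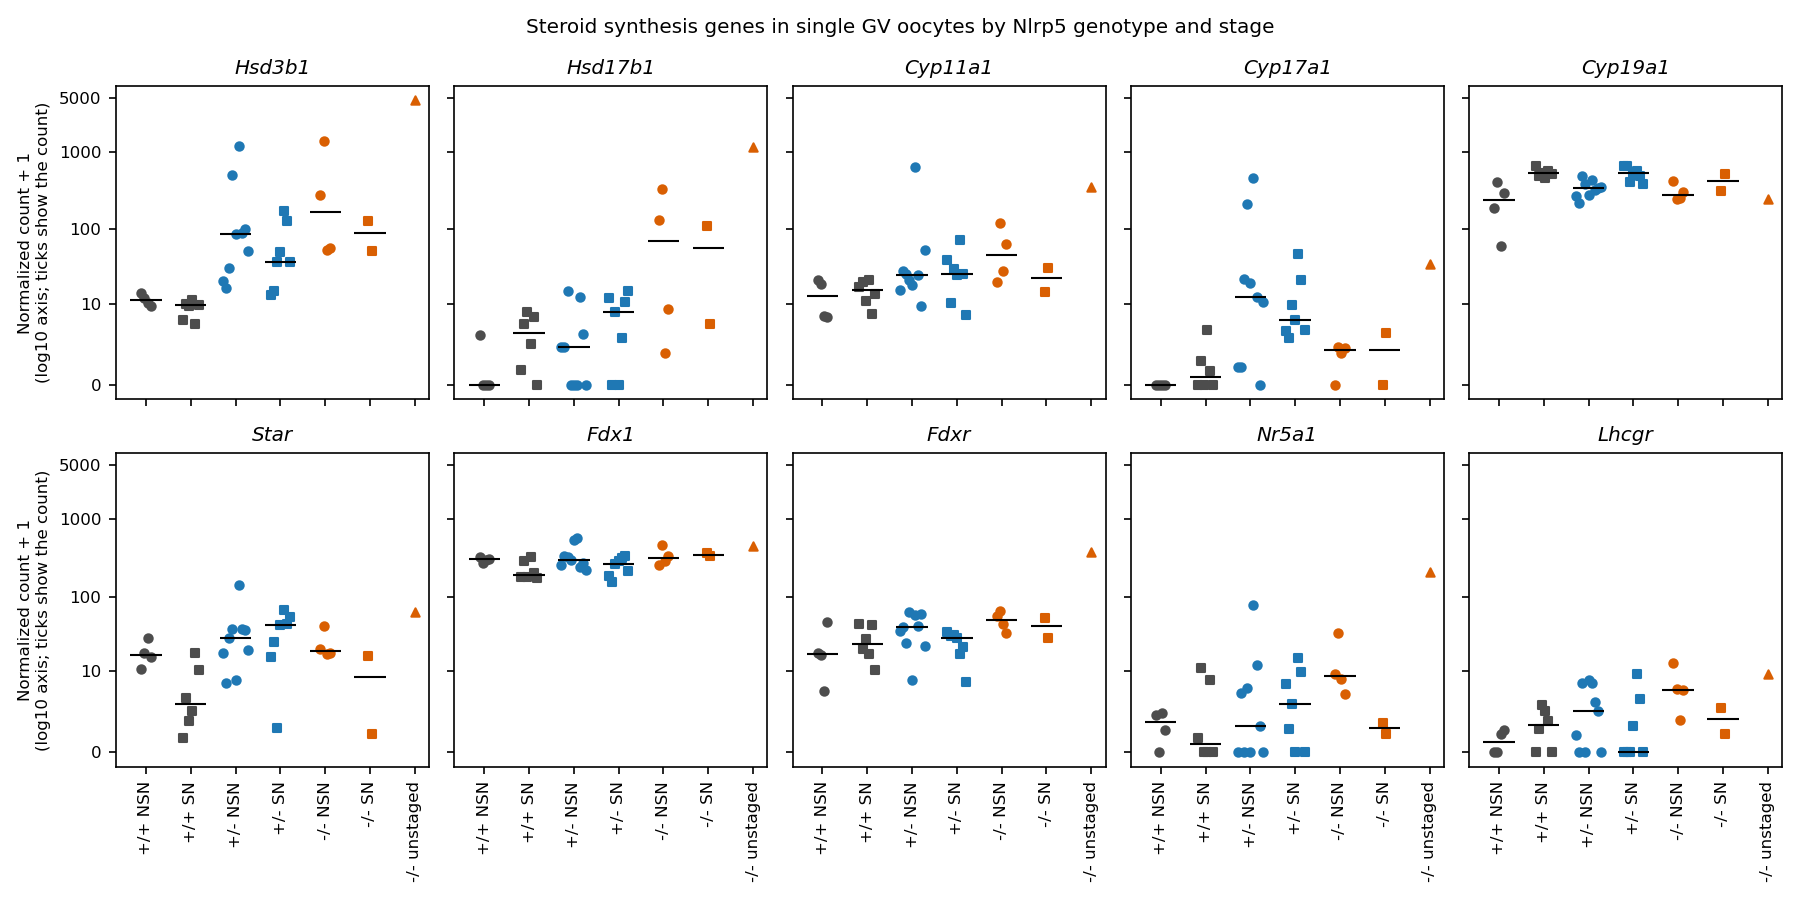
Normalized counts of the 10 steroid synthesis genes in each of 33 oocytes, on a log scale of normalized count + 1, with 1 panel per gene, 1 point per oocyte by genotype and stage, a line at the group median and oocyte 15 (unstaged) as its own group. *Hsd3b1* of every staged mutant oocyte lies above the +/+ oocytes of the same stage, while *Cyp19a1* lies between 60.8 and 664 and *Fdx1* between 153 and 574 over all oocytes.

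The sequence upstream of 3 members is shown, 1 from the gene that was high in both mutant genotypes and 2 that hold a motif of interest. RefSeq (GRCm38.p6) gives a promoter window for 6 of the 10 members, with 9 start sites between them, and the 250 bases before each start were searched. The motif was AGGTCA, or TGACCT on the other strand, the core site read by many nuclear receptors, the family to which NR5A1 belongs. It occurred in 3 of these 9 windows, 1 each of *Cyp11a1*, *Cyp19a1* and *Lhcgr*, and in 4607 of 32851 windows of the same length over all genes. A longer form, AAGGTCA or TGACCTT, which contains the shorter one, was in 0 of the 9 windows and in 4.08% of all windows. Below, the letters run 5′ to 3′ on the strand of the gene, and capitals mark the shorter motif. The *Hsd3b1* window holds neither form, the *Cyp11a1* window holds AGGTCA from base -28, and the *Cyp19a1* window holds TGACCT from base -81. The windows lie at chr3:98859795-98860044 (minus strand), chr9:58014702-58014951 (plus strand) and chr9:54268165-54268414 (minus strand).
Hsd3b1: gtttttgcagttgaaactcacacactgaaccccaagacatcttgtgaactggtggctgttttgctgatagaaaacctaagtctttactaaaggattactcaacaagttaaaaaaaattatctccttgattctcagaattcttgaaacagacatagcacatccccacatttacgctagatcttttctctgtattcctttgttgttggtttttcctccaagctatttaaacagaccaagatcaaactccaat
Cyp11a1: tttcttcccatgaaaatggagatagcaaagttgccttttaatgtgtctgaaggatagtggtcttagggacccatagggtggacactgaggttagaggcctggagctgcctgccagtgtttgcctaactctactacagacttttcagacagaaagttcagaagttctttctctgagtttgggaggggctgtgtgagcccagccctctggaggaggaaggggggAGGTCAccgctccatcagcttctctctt
Cyp19a1: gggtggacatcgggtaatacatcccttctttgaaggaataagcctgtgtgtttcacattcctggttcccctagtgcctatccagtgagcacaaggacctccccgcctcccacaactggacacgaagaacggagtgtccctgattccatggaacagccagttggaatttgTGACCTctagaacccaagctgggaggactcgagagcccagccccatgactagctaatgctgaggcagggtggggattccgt

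*Hsd17b1* followed *Hsd3b1* in -/- oocytes and not in +/- oocytes. Its product reduces oestrone to oestradiol and is a granulosa cell enzyme (chr11:101078411-101080527, plus strand). It read 0 to 3.36 normalized counts in the 4 NSN +/+ oocytes and 0 to 7.79 in the 6 SN +/+ oocytes. The NSN -/- oocytes 13, 14, 29 and 30 read 131, 329, 1.58 and 8.58, the SN -/- oocytes 7 and 31 read 109 and 5.07, and oocyte 15 read 1145. The values of -/- oocytes thus fell apart by first index, with 131 to 1145 in oocytes 13, 14 and 15, 109 in oocyte 7 and 1.58 to 8.58 in oocytes 29, 30 and 31. The part of the index group in this was not tested. The 16 +/- oocytes read 0 to 15.2, and both +/- oocytes with the highest *Hsd3b1*, 61 and 54, had 0 counts.

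The log2 fold change of *Hsd17b1* was 6.01 in NSN -/- over +/+ and 3.62 in SN -/- over +/+, and at both stages the groups overlapped. The NSN value was 6.89 without +/+ oocyte 70, the only one of its group with a count. Without oocyte 14 the NSN value was 4.71, and without oocytes 13 and 14 together it was 1.72. The SN value was 0.36 without oocyte 7 and 4.55 without oocyte 31. Against +/- oocytes the log2 fold change was 4.599 at NSN and 2.87 at SN. Without oocyte 14 the former was 3.30. The latter was 3.80 without oocyte 31, and without oocyte 7 it changed sign to -0.39.

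*Cyp17a1* was high in single +/- oocytes and low in staged -/- oocytes. Its product makes androgens from progesterone and pregnenolone, the step that belongs to theca and interstitial cells (chr19:46667165-46673172, minus strand). All 4 NSN +/+ oocytes had 0 counts, and the 6 SN +/+ oocytes had 0 to 4.02 normalized counts. The 9 NSN +/- oocytes ran from 0 to 460.4 with a median of 12.4, and the 7 SN +/- oocytes from 3.07 to 47.1 with a median of 5.76. The highest values were in oocyte 61 (460.4), oocyte 54 (211) and oocyte 46 (47.1), which were also the highest in *Hsd3b1* of the +/- oocytes. The staged -/- oocytes read 0 to 3.62, oocytes 13 and 14 included at 0 and 2.08, and oocyte 15 read 35.3.

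Over the 4 NSN +/+ oocytes, 0 of 36947403 counts fell on *Cyp17a1*, which allows up to 0.0812 CPM at 3 counts over the group. The 9 NSN +/- oocytes held 575 counts, 8.997 CPM with an exact Poisson 95% interval of 8.28 to 9.76, and were at least 110.8-fold higher. Without oocyte 61 they were at least 49.76-fold higher, and without oocytes 54 and 61 at least 11.98-fold higher. The 4 NSN -/- oocytes held 7 counts, 0.227 CPM (0.0912 to 0.467). These intervals cover counting error only, since reads were not marked by molecular identifiers and cells differ by more. *Cyp17a1* was lower in -/- than in +/- oocytes, with a log2 fold change of -5.11 at NSN and -2.38 at SN, and the groups overlapped. The NSN value was -3.89 without oocyte 61. The SN value was -1.68 without oocyte 46, -1.66 without oocyte 7 and -3.87 without oocyte 31.

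**Figure D2:**
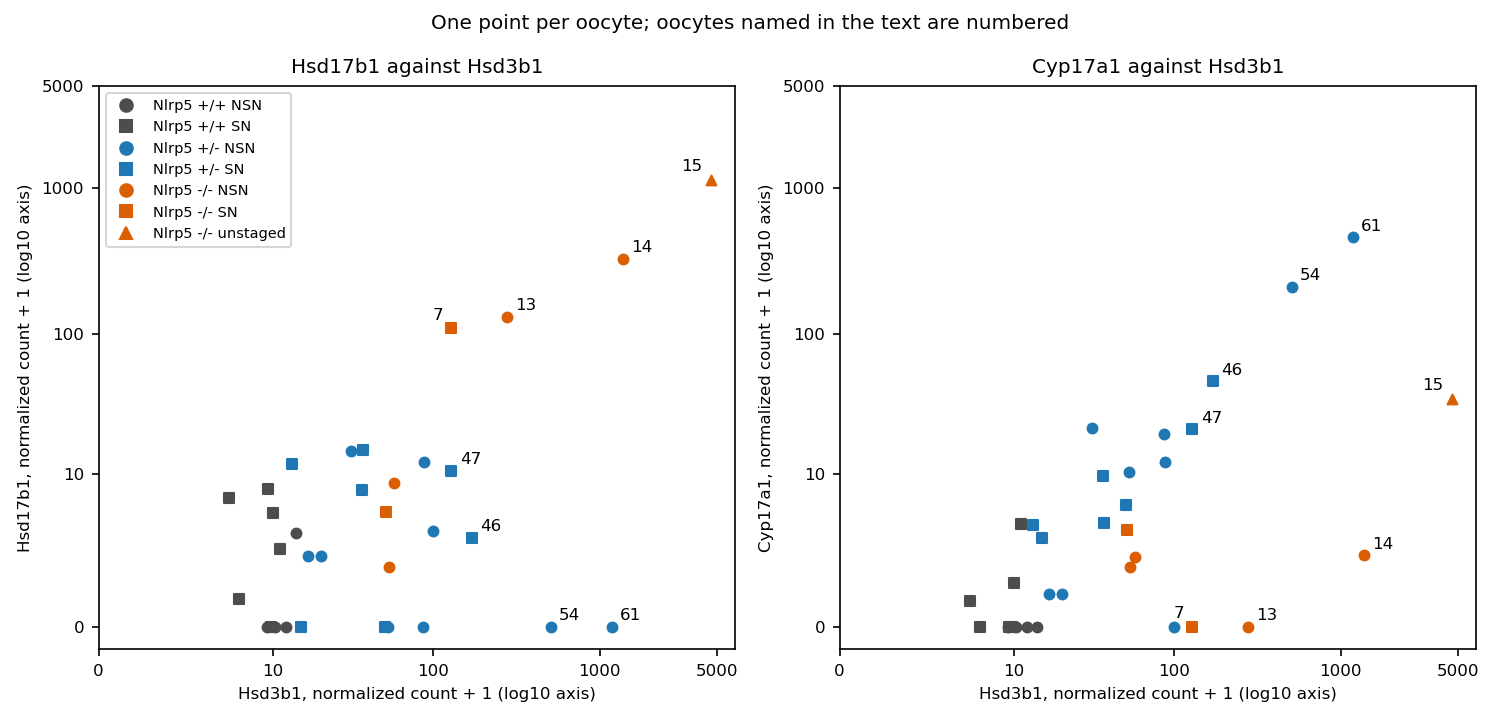
Normalized counts of *Hsd17b1* (left) and *Cyp17a1* (right) against *Hsd3b1* in 33 oocytes, all on log scales of normalized count + 1, coloured by genotype, with the oocytes named in the text numbered. *Hsd17b1* climbs with *Hsd3b1* in -/- oocytes while +/- oocytes 54 and 61 lie at 0, and *Cyp17a1* is high in those +/- oocytes and near 0 in the staged -/- oocytes.

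Ratios within an oocyte do not depend on how its library was scaled. Pooled over NSN oocytes there were 24.9 *Hsd17b1* counts per 100 *Hsd3b1* counts in -/- (exact binomial 95% interval 22.6 to 27.3) and 1.88 (1.27 to 2.68) in +/-. The same pools gave 0.311 *Cyp17a1* counts per 100 *Hsd3b1* counts (0.125 to 0.641) in -/- and 34.8 (31.6 to 38.3) in +/-. Leaving out any 1 oocyte kept the *Hsd17b1* ratio of -/- between 23.3 and 31.4 and the *Cyp17a1* ratio of +/- between 30.1 and 36.7. Without oocyte 14 the *Cyp17a1* ratio of -/- was 1.48 and without oocyte 30 it was 0.185. The *Hsd17b1* ratio of +/- was 3.97 without oocyte 61, outside its counting interval, and 1.23 without oocyte 53. These pools were carried by few oocytes, so pairs of oocytes were left out, a choice made after the values were seen, as it was for the markers. Oocytes 29 and 30 stood at 2.94 and 14.9 *Hsd17b1* counts per 100, and without both oocytes 13 and 14 the pool of -/- was 11.6 (6.14 to 20.2). Without both oocytes 54 and 61 that of +/- was 9.20 (6.15 to 13.3), and these intervals overlapped. The *Cyp17a1* ratios without these pairs were 3.31 (0.886 to 8.68) in -/- and 14.8 (10.8 to 20.01) in +/-.

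At SN the ratios had the same order but rested on fewer counts. *Hsd17b1* stood at 53.01 per 100 *Hsd3b1* counts (40.5 to 69.1) in -/- and 9.46 (6.78 to 12.9) in +/-, and *Cyp17a1* at 3.01 (0.965 to 7.17) and 20.9 (16.6 to 26.0). Without oocyte 7 the *Hsd17b1* ratio of -/- was 9.86, within the interval of +/-, and its *Cyp17a1* ratio was 7.04. Without oocyte 31 these were 85.3 and 0. In +/+ oocytes *Hsd3b1* was too sparse for a firm ratio: 5 *Hsd17b1* counts stood beside 58 *Hsd3b1* counts at NSN, or 8.62 per 100 (2.70 to 21.3). At SN there were 39.7 *Hsd17b1* counts per 100 (24.4 to 62.9), which overlapped the interval of SN -/- oocytes. *Cyp17a1* stood at 10.3 per 100 (3.99 to 22.4), which overlapped the intervals of both SN -/- and SN +/- oocytes.

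Single oocytes were compared in the same way, chosen after their values were seen. At least 100 normalized *Hsd3b1* counts were held by 8 oocytes, namely +/- oocytes 46, 47, 54 and 61 and -/- oocytes 7, 13, 14 and 15. Oocytes 14 and 15 had nearly the same ratio of *Hsd17b1* to *Hsd3b1*, with 24.0 per 100 (21.6 to 26.5) and 24.8 (23.3 to 26.3), although *Hsd3b1* itself was several times higher in oocyte 15. Their ratios of *Cyp11a1* to *Hsd3b1* were 8.88 (7.57 to 10.4) and 7.70 (6.95 to 8.50), whose intervals overlapped. *Cyp17a1* stood at 0.151 (0.0312 to 0.443) in oocyte 14 and 0.764 (0.550 to 1.03) in oocyte 15, and *Star* at 3.03 (2.30 to 3.91) and 1.36 (1.07 to 1.71), and for both genes the intervals did not meet. Oocytes 13 and 7 held relatively more *Hsd17b1*, 47.3 and 85.3 per 100, and 0 counts of *Cyp17a1*. In oocytes 54 and 61 *Cyp17a1* stood at 41.7 (34.9 to 49.6) and 39.1 (34.4 to 44.4) per 100, and *Hsd17b1* at 0, which allows up to 0.834 and 0.425. These 2 oocytes were unlike in *Cyp11a1*, with 4.28 and 54.5 per 100 *Hsd3b1* counts.

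**Figure D3:**
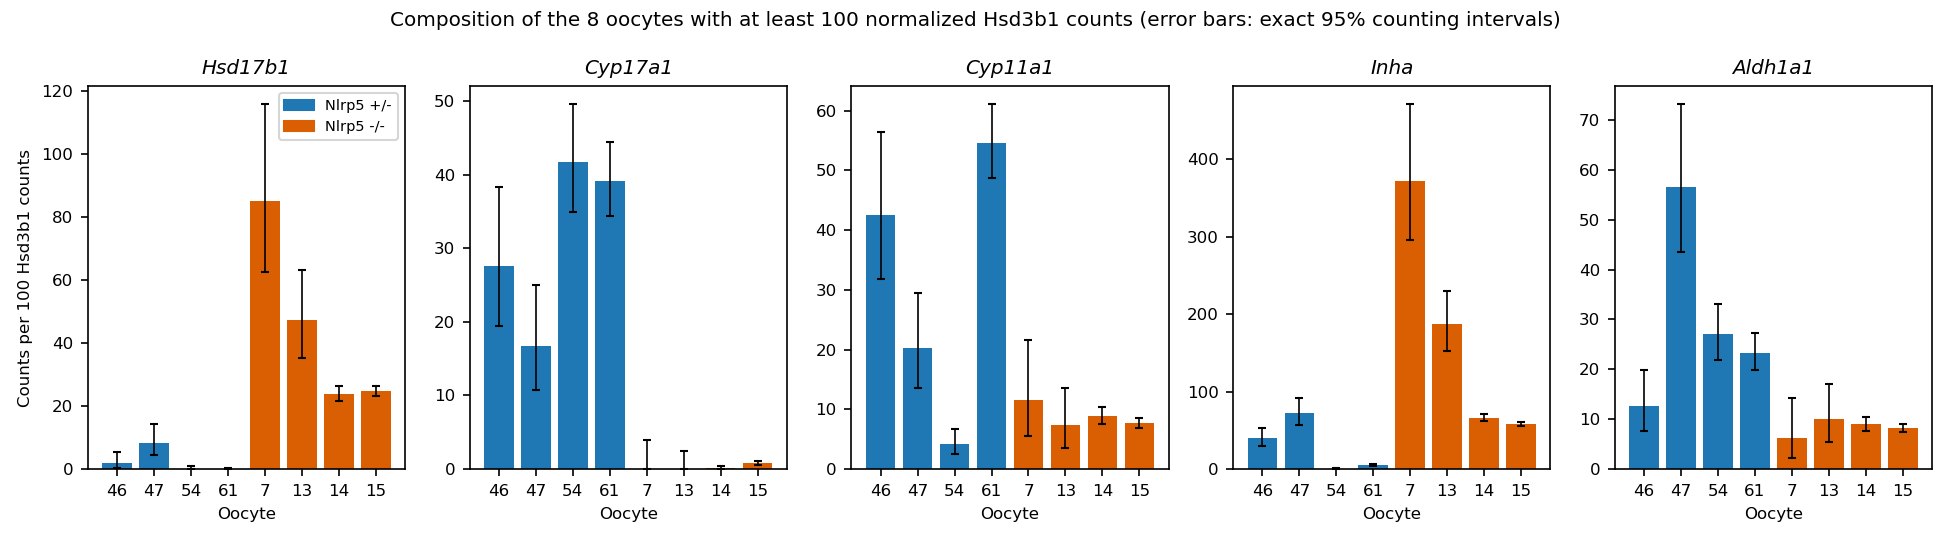
Counts of *Hsd17b1*, *Cyp17a1*, *Cyp11a1* and the markers *Inha* and *Aldh1a1* per 100 *Hsd3b1* counts (bars) in the 8 oocytes with at least 100 normalized *Hsd3b1* counts, with exact binomial 95% intervals as error bars (counting error only). The -/- oocytes lie between 24.0 and 85.3 for *Hsd17b1* and at or under 0.764 for *Cyp17a1*, and the +/- oocytes at or under 8.33 and between 16.7 and 41.7.

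*Cyp11a1*, the side-chain cleavage enzyme that makes pregnenolone from cholesterol (chr9:58006411-58027023, plus strand), was higher in single oocytes of both mutant genotypes. It read 6.45 to 21.5 normalized counts in the 4 NSN +/+ oocytes and 7.09 to 21.7 in the 6 SN +/+ oocytes. The NSN -/- oocytes 13, 14, 29 and 30 read 20.3, 122, 28.4 and 63.3, and oocyte 15 read 356. The NSN +/- oocytes ran from 9.47 to 642 with a median of 24.9, oocyte 61 being the highest. The log2 fold change was 2.05 in NSN -/- over +/+ (1.42 without oocyte 14) and 2.71 in NSN +/- over +/+, and the latter was 0.84 without oocyte 61. The SN -/- oocytes 7 and 31 read 14.8 and 31.1, and the SN +/- oocytes ran from 6.93 to 72.7. At SN the log2 fold change was 0.57 in -/- (-0.02 without oocyte 31) and 0.95 in +/- (0.58 without oocyte 46). All these groups overlapped with +/+. The gene overlaps *Gm17322* on the same strand, and their reads cannot be told apart here.

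*Star*, whose product carries cholesterol into mitochondria (chr8:25806555-25815982, plus strand), was higher in SN +/- than in SN +/+ oocytes. The 7 SN +/- oocytes ran from 1.08 to 67.6 normalized counts with a median of 42.6, and the 6 SN +/+ oocytes from 0.54 to 18.2 with a median of 3.21. The log2 fold change was 2.36 with overlap, and 2.95 without +/+ oocyte 85. At NSN it was 0.99 in +/- over +/+ (0.37 without oocyte 61) and 0.39 in -/- over +/+. The SN -/- oocytes read 0.72 and 16.2, and their log2 fold change over SN +/- was -1.96 with overlap, -4.42 without oocyte 7 and -1.10 without oocyte 31. In oocyte 61 *Star* read 144 and in oocyte 15 it read 63.04.

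*Fdx1* and *Fdxr*, which pass electrons to the mitochondrial cytochromes P450, were measured in every oocyte. *Fdx1* (chr9:51943306-51963556, minus strand) lay between 153 and 574 normalized counts in all 33 oocytes. Of the 4 comparisons with +/+, its log2 fold change was largest in SN -/-, at 0.63, where both -/- oocytes (336 and 363) lay above the 6 +/+ oocytes (176 to 326). *Fdxr* (chr11:115268024-115277050, minus strand) read 33.6 to 65.8 in the 4 NSN -/- oocytes and 5.19 to 47.02 in the 4 NSN +/+ oocytes, a log2 fold change of 1.15 with overlap. Without oocyte 14 this was 0.99, and it was 0.84 without +/+ oocyte 79 and 1.81 without +/+ oocyte 87. Oocyte 15 read 374.

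*Cyp19a1*, the aromatase of granulosa cells that turns androgens into oestrogens (chr9:54165937-54268110, minus strand), did not follow *Hsd3b1* or *Hsd17b1*. It read 60.8, 190, 291 and 409 normalized counts in the 4 NSN +/+ oocytes and 462 to 664 in the 6 SN +/+ oocytes, so that every SN oocyte was above every NSN oocyte (log2 fold change of SN over NSN, 1.18). The stages overlapped in +/- oocytes (0.62) and in -/- oocytes (0.45). The NSN -/- oocytes read 247 to 417, the SN -/- oocytes 313 and 525 and oocyte 15 read 246. Between genotypes its log2 fold change lay between -0.36 (SN -/- over +/+) and 0.52 (NSN +/- over +/+).

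*Nr5a1*, the nuclear receptor SF-1 that switches on most genes of this chain (chr2:38692656-38714542, minus strand), was at or under 15.4 normalized counts except in oocyte 14 (33.3), oocyte 61 (78.5) and oocyte 15 (208). All 4 NSN -/- oocytes lay above the 4 NSN +/+ oocytes, at 4.62 to 33.3 against 0 to 2.22, but the gene was under the filter on low counts in that comparison. It overlaps its antisense partner *Nr5a1os*, and unless strand was used in counting, reads of the 2 cannot be told apart. *Lhcgr*, the receptor for luteinizing hormone (chr17:88716481-88791990, minus strand), stayed at or under 12.9 in all oocytes, with 1.58 to 12.9 in NSN -/- and 0 to 0.92 in NSN +/+, and passed the filter in no comparison.

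**Figure D4:**
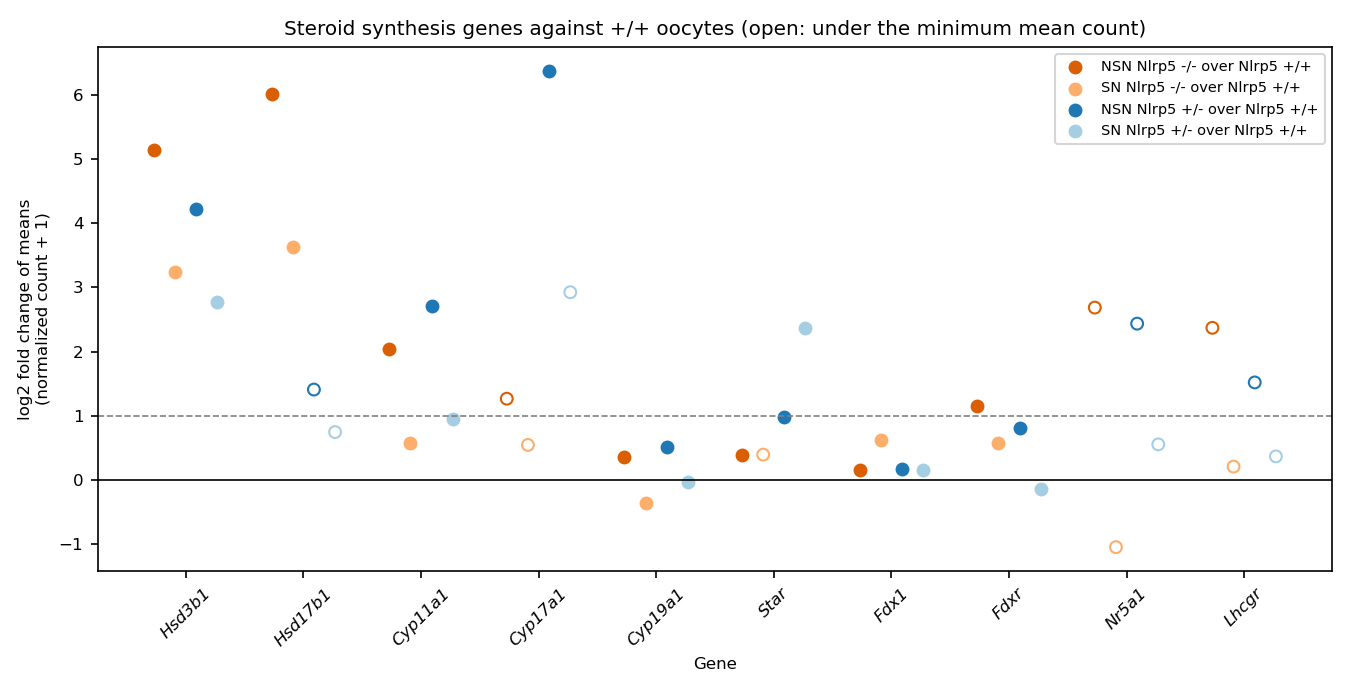
Log2 fold changes of the 10 members in the comparisons of mutant with +/+ oocytes of the same stage, between means of normalized counts + 1, with open symbols for genes under the filter of a mean of 10 normalized counts. *Hsd3b1* is at least 2.78 in all 4 comparisons. *Hsd17b1* is high in the means of -/- oocytes, which rest on oocytes 13 and 14 at NSN and on oocyte 7 at SN. *Cyp17a1* is high in the means of +/-, where its NSN value depends on the pseudocount because the +/+ group is at 0.

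Counted over the members, 7 passed the filter in NSN -/- over +/+, and 4 of these (*Hsd3b1*, *Hsd17b1*, *Cyp11a1* and *Fdxr*) were at least 2-fold higher, beside 4.93% of the 13833 genes that passed. In SN -/- over +/+ it was 2 of 6 (*Hsd3b1* and *Hsd17b1*), beside 4.07% of genes. In NSN +/- over +/+ it was 3 of 7 (*Hsd3b1*, *Cyp11a1* and *Cyp17a1*), beside 2.03%, and in SN +/- over +/+ 2 of 6 (*Hsd3b1* and *Star*), beside 1.14%. In -/- over +/- only *Hsd17b1* was, 1 of 9 at NSN beside 3.07% of genes and 1 of 8 at SN beside 3.35%. At least 2-fold lower in -/- than in +/- was *Cyp17a1* at NSN (3.43% of genes were), and *Cyp17a1* and *Star* at SN (5.56%). Since values of *Hsd3b1* and *Hsd17b1* led to the choice of members, nothing is read from these shares. The median log2 fold change of the members that passed was 1.15, 0.60, 0.99 and 0.55 in the first 4 comparisons. Over all genes the medians lay between -0.01 and 0.04, and nothing is read from this difference either. At NSN *Hsd17b1* (mean 0.84 in +/+, 118 in -/-) and *Cyp17a1* (0 in +/+, 81.9 in +/-) passed the filter only through the mutant group.

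Groups were also compared by whether their oocytes overlapped. Every NSN -/- oocyte was above every NSN +/+ oocyte for *Hsd3b1* alone of the members that passed, and this held for 3.96% of genes. In SN -/-, with only 2 oocytes, it held for *Hsd3b1* and *Fdx1* and for 7.24% of genes. In +/- oocytes it held for *Hsd3b1* alone, where the shares were 0.175% of genes at NSN and 0.0226% at SN.

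Taken oocyte by oocyte, the members moved in partial sets. Over all oocytes 13896 genes passed the filter, among them 9 members, all but *Lhcgr*, and both counts are given on this base. Oocyte 15 exceeded all 10 +/+ oocytes in 8 of the 9 members, all but *Cyp19a1*, and in 26.6% of genes. Oocyte 14 did so in 7, all but *Cyp17a1* and *Cyp19a1* (19.5% of genes), and oocyte 61 in 7, all but *Hsd17b1* and *Cyp19a1* (18.1%). Oocyte 54 did so in 4, *Hsd3b1*, *Cyp17a1*, *Star* and *Fdxr* (10.4%). Other +/- oocytes did so in as many members or more, with 6 in oocyte 62 (9.46%), 6 in oocyte 47 (5.66%), 5 in oocyte 46 (7.59%) and 4 in oocyte 53 (11.6%). The remaining 10 +/- oocytes did so in 1 to 4 members, with shares between 4.66% and 20.1% of genes. Among the other -/- oocytes the number was 3 in oocyte 13 (13.3%), 4 in oocyte 7 (15.3%), 4 in oocyte 30 (9.68%), 3 in oocyte 31 (7.99%) and 2 in oocyte 29 (10.6%). *Cyp19a1* exceeded the +/+ range in no mutant oocyte.

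Whether the genes were high together was described by rank correlation over oocytes (Spearman's rho), which share depth, index groups and genotype, so no p-value is given. Of 45 pairs of members, 37 had a rho above 0 over 33 oocytes, 8 were at least 0.5, and the median was 0.29. The range was from -0.49 (*Cyp19a1* with *Fdx1*) to 0.63 (*Hsd3b1* with *Star*). Without oocytes 15 and 61 the median was 0.20, and 2 pairs remained at 0.5 or more. *Hsd3b1* and *Hsd17b1* had a rho of 0.32 over all oocytes, 0.96 over the 7 -/- oocytes and -0.21 over the 16 +/- oocytes. *Hsd3b1* and *Cyp17a1* had 0.56 over all, 0.68 over the +/- oocytes and 0.16 over the -/- oocytes. *Hsd17b1* and *Cyp17a1* had 0.07 over all oocytes, and *Hsd3b1* and *Cyp19a1* had -0.30.

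Among the 13895 other genes that passed the filter over all oocytes, those most like *Hsd3b1* in rank were *Gstm1* (0.84), *Tceal9* (0.84), *Akr1cl* (0.84), *Mgarp* (0.80) and *Nenf* (0.79). *Akr1cl* read 129 normalized counts on average in +/+ oocytes, 8388 in oocyte 15, 2124 in oocyte 14 and 926 in oocyte 61. *Star* came at rank 47, *Cyp11a1* at 87, *Cyp17a1* at 104, *Hsd17b1* at 1481 and *Cyp19a1* at 12171. Those most like *Hsd17b1* were *Taok2* (0.70), *Mybpc3* (0.65), *Hpgd* (0.65), *Septin3* (0.65) and *Hspb1* (0.64), and *Hsd3b1* came at rank 825. *Mybpc3* and *Hpgd* were at or near 0 in +/+ oocytes and in oocytes 54 and 61, and read 211 and 183 in oocyte 15.

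Markers of somatic cells were measured beside the members. The list for granulosa cells has 14 genes, and its summed level was 193 to 305 CPM in +/+ oocytes, 199.6 to 345 in +/-, 267 to 647 in staged -/- and 1563 in oocyte 15. *Kitl*, *Nr5a2*, *Ccnd2* and *Esr2* reached 10 CPM or more in +/+ oocytes. The other 10 genes summed to 1.38 to 11.4 CPM in +/+ and 1.18 to 25.8 in +/- oocytes. In -/- oocytes they summed to 141 in oocyte 13, 257 in oocyte 14, 96.1 in oocyte 7, 17.6 in oocyte 29, 8.50 in oocyte 30, 13.2 in oocyte 31 and 754 in oocyte 15. The 4 -/- oocytes with *Hsd17b1* over 100 were thus the 4 with the highest granulosa sums. *Foxl2* and *Amh*, defining genes of granulosa cells, read 290.0 and 97.5 normalized counts in oocyte 15 and 27.02 and 7.62 in oocyte 14. *Foxl2* was at 0 in oocytes 7 and 13, where *Amh* read 14.8 and 9.23. In NSN -/- over +/+, 6 of 10 granulosa markers that passed were at least 2-fold higher, beside 4.93% of all genes. *Gja1* (log2 fold change 6.30) and *Inha* (5.94) were among them. Of 2 theca markers 1 was higher, *Aldh1a1* (3.69), and of 11 oocyte markers 0 were. *Gja1*, *Inha* and *Aldh1a1* had +/+ means of 1.96, 5.18 and 2.67, under the filter. Any marker so low in +/+ passed only through mutant oocytes and could not come out lower. The oocyte markers were far above the filter in both genotypes, so these counts are not alike. Without both oocytes 13 and 14, 1 of 7 granulosa markers was higher, *Inha* (2.81), and 1 was at least 2-fold lower. The 1 theca marker that then passed, *Ptch1*, was lower (-1.32). In SN -/- over +/+, 3 of 8 granulosa markers were higher, *Inha* (4.07), *Fst* (2.81) and *Gja1* (2.68), beside 4.07% of all genes. The 1 theca marker that passed was higher too, *Ptch1* (1.07). Without oocyte 7, 2 of 7 granulosa markers were higher, *Inha* (1.88) and *Gja1* (1.07), and 1 was at least 2-fold lower. *Fst* (-0.49) and *Ptch1* (0.92) then no longer passed the filter.

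In oocyte 54 the 10 granulosa genes summed to 1.18 CPM, the lowest of all oocytes, with *Foxl2* and *Amh* at 0. In oocyte 61 they summed to 18.2 CPM, again with *Foxl2* and *Amh* at 0. The list for theca and interstitial cells has 7 genes, of which all but *Ptch1* stayed under 10 CPM in +/+ oocytes. These 6 summed to 1.22 to 5.53 CPM in +/+, 1.77 to 47.4 in +/-, 4.52 to 24.1 in staged -/- oocytes and 81.8 in oocyte 15. Oocytes 61 (47.4), 54 (21.3) and 47 (15.1) had the highest sums of the +/- oocytes. *Aldh1a1* read 275 and 137 normalized counts in oocytes 61 and 54, and *Insl3*, the defining gene of theca cells, was highest in oocyte 54 (13.7) and at 0 in oocyte 61. In NSN +/- over +/+, *Fshr* (1.14) and *Inha* (1.69) were the 2 of 6 granulosa markers at least 2-fold higher on the log2 scale, and of 2 theca markers that passed *Aldh1a1* was higher (4.03) and *Ptch1* lower (-1.09). In SN +/- over +/+ 1 of 7 granulosa markers was higher, *Inha* (1.47), and all 3 theca markers that passed, *Aldh1a1* (1.80), *Ptch1* (1.24) and *Enpep* (1.16). Over all genes 2.03% were higher in +/- at NSN and 1.14% at SN. These marker genes are named after their values were seen.

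Stroma, vessel and blood markers (12 genes, 10 of them low in +/+) summed over those 10 to 0.793 to 17.2 CPM in +/+ oocytes, 0.678 to 49.1 in +/-, 4.87 to 48.3 in staged -/- and 197 in oocyte 15. Of the whole list, 6 of 7 that passed were at least 2-fold higher in NSN -/- over +/+. In SN -/- it was 3 of 6 (with 1 lower), in NSN +/- 2 of 5 and in SN +/- 4 of 7. Over all genes the shares were 4.93%, 4.07%, 2.03% and 1.14% in this order. Without oocyte 14, 3 of 6 were higher in NSN -/-. Without oocyte 31, 0 of 4 were higher in SN -/- and 2 were at least 2-fold lower. *Inha*, a granulosa marker taken as a partner after its values were seen, stood at 65.9 per 100 *Hsd3b1* counts in oocyte 14 and 58.7 in oocyte 15, and at 187 and 372 in oocytes 13 and 7. In +/- oocytes it stood at 0.225 and 5.18 in oocytes 54 and 61 and at 39.5 and 72.6 in oocytes 46 and 47, so the genotypes overlapped. *Aldh1a1* stood at 27.03 and 23.4 per 100 in oocytes 54 and 61 and at 12.6 and 56.5 in oocytes 46 and 47. In -/- oocytes it stood at 8.98 and 8.20 in oocytes 14 and 15 and at 6.32 in oocyte 7, and oocyte 13 held 15 counts beside 150 of *Hsd3b1*. The part of somatic cell RNA in the members' levels was not tested.

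**Figure D5:**
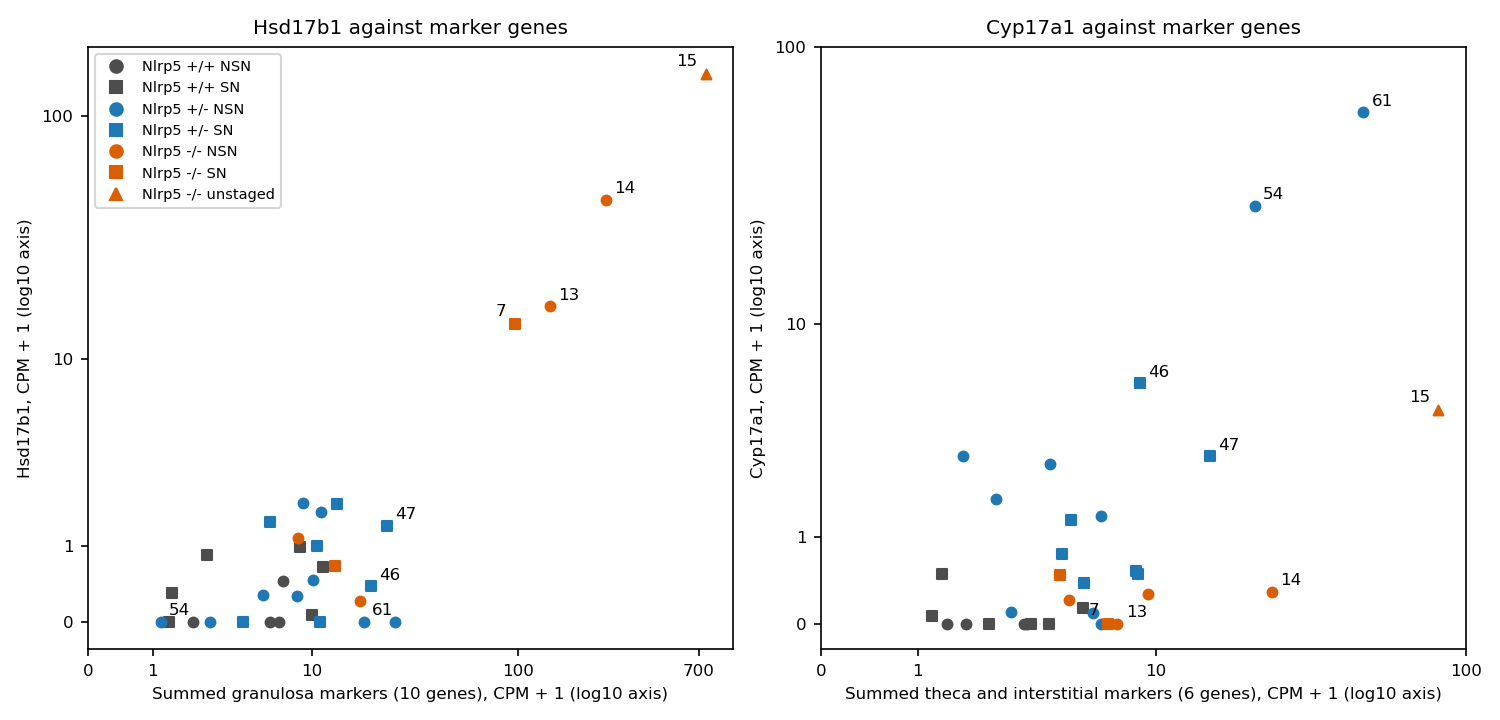
*Hsd17b1* against the sum of 10 granulosa markers (left) and *Cyp17a1* against the sum of 6 theca and interstitial markers (right), in CPM + 1 on log axes, for markers under 10 CPM in every +/+ oocyte, with 1 point per oocyte and those named in the text numbered. *Hsd17b1* is highest where the granulosa sum is highest, at 754 CPM in oocyte 15. *Cyp17a1* is highest in oocytes 61 and 54, whose theca sums are 47.4 and 21.3 CPM. Oocytes 15 and 14 have theca sums of 81.8 and 24.1 CPM but *Cyp17a1* at 4.51 and 0.291 CPM.

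Over 33 oocytes the rho of *Hsd3b1* was 0.64 with the granulosa sum and 0.75 with the theca sum, for markers low in +/+ oocytes. For *Hsd17b1* these were 0.54 and 0.28, for *Cyp17a1* 0.26 and 0.45, and for *Cyp19a1* -0.17 and -0.10. Within genotypes those of *Hsd3b1* were -0.19 and -0.01 over the 10 +/+ oocytes, 0.44 and 0.50 over the 16 +/- oocytes, and 0.89 with both sums over the 7 -/- oocytes. Those of *Hsd17b1* were 0.46 and 0.04 in +/+, 0.22 and -0.21 in +/-, and 0.86 with both in -/-. Those of *Cyp17a1* were -0.07 and -0.25 in +/+, 0.36 and 0.33 in +/-, and 0.20 and 0.34 in -/-. With the stroma, vessel and blood sum the rho of *Hsd3b1* was -0.36 in +/+, 0.12 in +/- and 0.36 in -/-. In the same order it was 0.24, 0.23 and 0.43 for *Hsd17b1* and -0.07, 0.05 and 0.95 for *Cyp17a1*. The summed members had a rho of 0.66 with all 14 granulosa markers, of 0.72 within +/+ oocytes, 0.29 within +/- and 0.96 within -/-. With the 10 granulosa markers low in +/+ oocytes these were 0.52, 0.16, 0.36 and 0.89. In +/+ oocytes the sum of 14 markers was mostly *Esr2*, at 174 CPM pooled over NSN and 220 over SN. The member sum there was mostly *Cyp19a1* (30.2 and 69.2 CPM) and *Fdx1* (40.8 and 27.4). With *Hsd3b1* and *Hsd17b1* left out of the sum, the rho with all 14 markers was 0.55.

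Other genes of the wider chain were counted in the same way. Of 25 other steroid enzymes, 11 passed the filter in NSN -/- over +/+, with 1 at least 2-fold higher (4.93% of all genes were) and 1 lower (3.21% were) and a median log2 fold change of 0.21. The higher one was *Akr1c14*, an enzyme that inactivates steroids, at 2.79 (mean 111 against 15.2 normalized counts), and the lower one *Hsd3b6*, at -1.11. *Por*, which feeds electrons to the P450 enzymes outside mitochondria, stood at 0.80. At SN 2 of 11 were higher (4.07% of all genes were), *Hsd17b10* (1.30), a mitochondrial dehydrogenase, and *Cyp1b1* (1.03), which hydroxylates oestrogens, and *Por* stood at 0.71. None of the 11 was lower by 2-fold at SN, where 5.99% of all genes were. In +/- over +/+ none of 11 differed by 2-fold at either stage.

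Genes for cholesterol supply gave 1 of 11 higher at NSN in -/- over +/+, beside 4.93% of all genes, *Tspo* (1.12), with *Stard3*, which moves cholesterol between membranes, at 0.98. At SN 0 of 10 were higher, beside 4.07%, and *Stard3* and *Stard4* stood at 0.93 and 0.74. Of the enzymes that build cholesterol, 1 of 17 was higher at each stage, a share near those of all genes, *Pmvk* in both, at 1.09 and 3.10. *Hmgcs1* and *Mvd* stood at 0.59 and 0.55 at NSN, and *Fdps* and *Mvd* at 0.78 and 0.72 at SN. In +/- over +/+ no gene of either list differed by 2-fold.

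Of 14 regulators and receptors, 10 passed at NSN in -/- over +/+. *Gata6* stood at 1.28 and *Cebpb* at -1.91, with all 4 -/- oocytes below the +/+ oocytes. At SN none of 8 differed by 2-fold, the largest being *Fshr*, the receptor for follicle-stimulating hormone, at -0.31, *Gata4* at -0.26 and *Esr1* at 0.25. In NSN +/- over +/+ 1 of 9 was higher, *Fshr* at 1.14 (named after its values were seen).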

How the data were processed

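Single-cell RNA libraries of 33 oocytes were analysed. Per the labels, the authors trimmed reads with Trim Galore and aligned them to GRCm38 with HISAT2, and they deposited a table of raw read counts per gene and oocyte. Whether strand was used in counting is not given in the sources used here. The study's methods name a later build, but the coordinates are those of GRCm38. Of 35373 entries, 52 repeated ones were left out, and no column belonged to an unknown sample. The authors' tables of their own comparisons, which hold fold changes and p-values, and a table of 1 read total per library were not used.

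Counts were divided by size factors (median of ratios over 33 oocytes). Log2 fold changes were taken between means with a pseudocount of 1, for genes with a mean of at least 10 normalized counts over the oocytes compared, and called at 2-fold. No test was made, since the labels name no mouse. Poisson and binomial intervals are exact, at 95%. Genotype came from the labels and stage from the study's staging plots. The members and lists were chosen with earlier results of these data known. Named genes were the 10 members, the 3 genes per pathway list with the largest absolute fold change at each stage in -/- over +/+, and the 5 genes most like *Hsd3b1* and *Hsd17b1*. Some genes of the pathway lists are not reported here. Alternatives were CPM, TMM factors, medians, pooled sums, a pseudocount of 5, no filter, no regard to stage, oocyte 61 as SN and leaving out each oocyte. Fold changes were tested on simulated data. TMM factors came from edgeR 4.0.16 in R 4.3.3, intervals and rank correlations from scipy 1.17.1, tables from pandas 2.3.3 with numpy 2.4.6, and plots from matplotlib 3.10.9, run with Python 3.11.15.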

Additional observations from a re-analysis of the deposited data

Results flagged for a closer look

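Oocyte 15, which entered no comparison by stage, lay above the highest +/+ oocyte in 9 members. In normalized counts, with the highest +/+ value in brackets, these were *Hsd3b1* 4620.3 (14.1), *Hsd17b1* 1145 (7.79), *Cyp11a1* 356 (21.7), *Cyp17a1* 35.3 (4.02), *Star* 63.04 (28.9), *Fdx1* 456 (326), *Fdxr* 374 (47.02), *Nr5a1* 208 (11.0) and *Lhcgr* 9.25 (3.12). Its oocyte markers summed to less, and its granulosa, theca and stroma markers to more, than in any staged oocyte, and their part in these levels was not tested.

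Also marked were 3 single values that lay far from the rest of their group by Dixon's ratio on the log2 scale, of 33 combinations of group and member, where chance marks about 1 in 20. They were *Cyp11a1* in oocyte 61 (642 normalized counts, the highest of the NSN +/- oocytes), *Fdxr* in oocyte 56 (7.58, the lowest of the NSN +/- oocytes) and *Star* in oocyte 39 (1.08, the lowest of the SN +/- oocytes).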

How the results depend on the processing

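The number of members at least 2-fold higher depended on single oocytes and on the filter. For NSN -/- over +/+ it was 4, and 7 with no filter. For NSN +/- over +/+ it was 3, and 6 with no filter. Without regard to stage, oocyte 15 included, it was 6 for -/- and 4 for +/- over +/+, and 4 for -/- over +/-. With oocyte 61 as SN it was 4 in SN +/- over +/+ and 3 in NSN -/- over +/-, where CPM, medians and pooled sums each gave 2. Medians gave 2 in SN -/- over +/-. Leaving out 1 oocyte in turn gave 3 to 4 for NSN -/- over +/+ (3 without oocyte 14 or +/+ oocyte 79), 2 to 4 for NSN +/- and 2 to 3 for SN +/- over +/+, 1 to 2 for SN -/- over +/+, 1 to 3 for NSN -/- over +/- and 0 to 2 for SN -/- over +/-. Chosen after the data were seen, leaving out oocytes 13 and 14 gave 2 in NSN -/- over +/+, and leaving out 54 and 61 gave 1 in NSN +/- over +/+. The rank correlation of summed members with granulosa markers, 0.66, was 0.61 without *Gja1* and *Inha*, 0.55 without *Hsd3b1* and *Hsd17b1*, 0.52 with markers low in +/+ (chosen after the data were seen), and 0.63 to 0.72 when 1 oocyte was left out. Of 807 recomputed fold changes of members, 756 stayed within 1 SD of cells, 50 moved further, and 1 that differed by 2-fold changed sign, *Hsd17b1* in SN -/- over +/- without oocyte 7, at -0.39 (-0.39 to 3.80 when 1 oocyte was left out). No paired analysis was possible because the genotypes share no replicate numbers and no test was made. Low counts of *Hsd17b1*, *Cyp17a1*, *Nr5a1* and *Lhcgr* limit their ratios in +/+ oocytes.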
